A study of Mus musculus with 13 samples.

Results

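Neonatal ventricular cardiomyocytes, the beating cells of the heart, were compared with neonatal cardiac fibroblasts, which build its connective tissue. The labels assigned 2 libraries to each cell type, and these 4 of the 13 libraries of the series entered the contrast. All animals were wild-type FvB mice, and no mutation or treatment separated the groups. The cardiomyocyte libraries came from postnatal days 1 to 2 (replicate 1) and day 1 (replicate 2). The fibroblast titles give days 1 to 3 (replicate 1) and days 1 to 2 (replicate 2), while their age field gives day 1 for both. Atria were removed before isolation, per the labels. Both cell types were isolated with a preplating step, which separates cells by how fast they stick to a dish, after a commercial neonatal isolation kit for cardiomyocytes and enzymatic digestion for fibroblasts. The extraction kit was one for fibrous tissue in cardiomyocytes and one for small samples in fibroblasts. Cell type therefore cannot be told apart from isolation procedure or extraction kit. Values are FPKM, fragment counts corrected for transcript length and sequencing depth, added up over a gene's transcripts.

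The heart of a newborn mouse is in transition. Its cardiomyocytes still express fetal contractile genes, leave the cell cycle in the first days after birth and move from glucose and lactate to fatty acids as fuel. Cardiac fibroblasts largely descend from the epicardium, carry the receptor Pdgfra and the transcription factor Tcf21, and expand the collagen matrix over the same days. Nothing in the labels says that the libraries of a cell type came from separate cultures or litters, so the p-values measure the spread between these libraries, which may be technical. An exact two-sided permutation test has a smallest possible p of 0.333 with 2 libraries a group. Calls therefore rest on limma, which fits all genes at once and shares their spread. Fragment totals are not given in the deposited tables. Deposited coverage divided by FPKM, which rises with depth, was 24.7 and 25.1 in cardiomyocytes and 31.1 and 32.8 in fibroblasts, and 21774 to 22468 transcripts reached 1 FPKM. Spearman's rho across 11944 genes was 0.992 between the cardiomyocyte libraries, 0.988 between the fibroblast libraries and 0.856 to 0.873 between cell types, where genes are not independent replicates.

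The labels were checked first against the defining genes of both cell types. Myl2, the ventricular regulatory myosin light chain, was at 6310 and 5794 FPKM in cardiomyocytes and at 649 and 582 in fibroblasts. Cardiac troponin T (Tnnt2) was at 3375 and 2770 in cardiomyocytes and at 307 and 277 in fibroblasts. The collagen chain Col1a1 was at 74.5 and 60.7 in cardiomyocytes and at 554 and 623 in fibroblasts. Both contractile genes were high in both cardiomyocyte libraries and Col1a1 in both fibroblast libraries, and no groups overlapped. The log2 differences, cardiomyocytes minus fibroblasts, were 3.30 ± 0.09 (SE) for Myl2, 3.38 ± 0.12 for Tnnt2 and -3.11 ± 0.12 for Col1a1, and the highest of their limma adjusted p-values was 1.02e-05. All 14 cardiomyocyte markers were called higher in cardiomyocytes, and all 10 fibroblast markers with a value were called higher in fibroblasts. Over all genes tested 56.5% were called, 29.4% as higher in cardiomyocytes and 27.1% as higher in fibroblasts.

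Each preparation also held transcripts of the other cell type at a level of its own. Cardiomyocyte markers stood in the fibroblast libraries at between 6.49% (Ryr2) and 10.2% of their cardiomyocyte level. This ratio was nearly the same for abundant and rare markers, with a median of 9.98% in fibroblast replicate 1 and 8.61% in replicate 2. In the later fibroblast libraries of the series, which are not part of the contrast, the medians were 0.0529% and 0.0516% of the later cardiomyocyte level. In the cardiomyocyte libraries, fibroblast markers reached 7.91% (replicate 1) and 7.49% (replicate 2) of the fibroblast mean in the median. Gene by gene they ranged from 6.35% to 14.7%. In the later cardiomyocyte libraries (days 30 and 67), 9 of these markers had medians of 12.4% and 10.6% of the later fibroblast level. Of 1884 genes called higher in cardiomyocytes and at 10 FPKM or more there, 18 had a lower fibroblast percentage than every cardiomyocyte marker. They included red blood cell, atrial and mitochondrial transcripts, pseudogenes, Nebl and Mtus2. The part that cells or RNA of the other type had in any difference was not tested. In these bulk libraries, fewer cells of a type and less RNA per cell cannot be told apart.

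**Figure D1:**
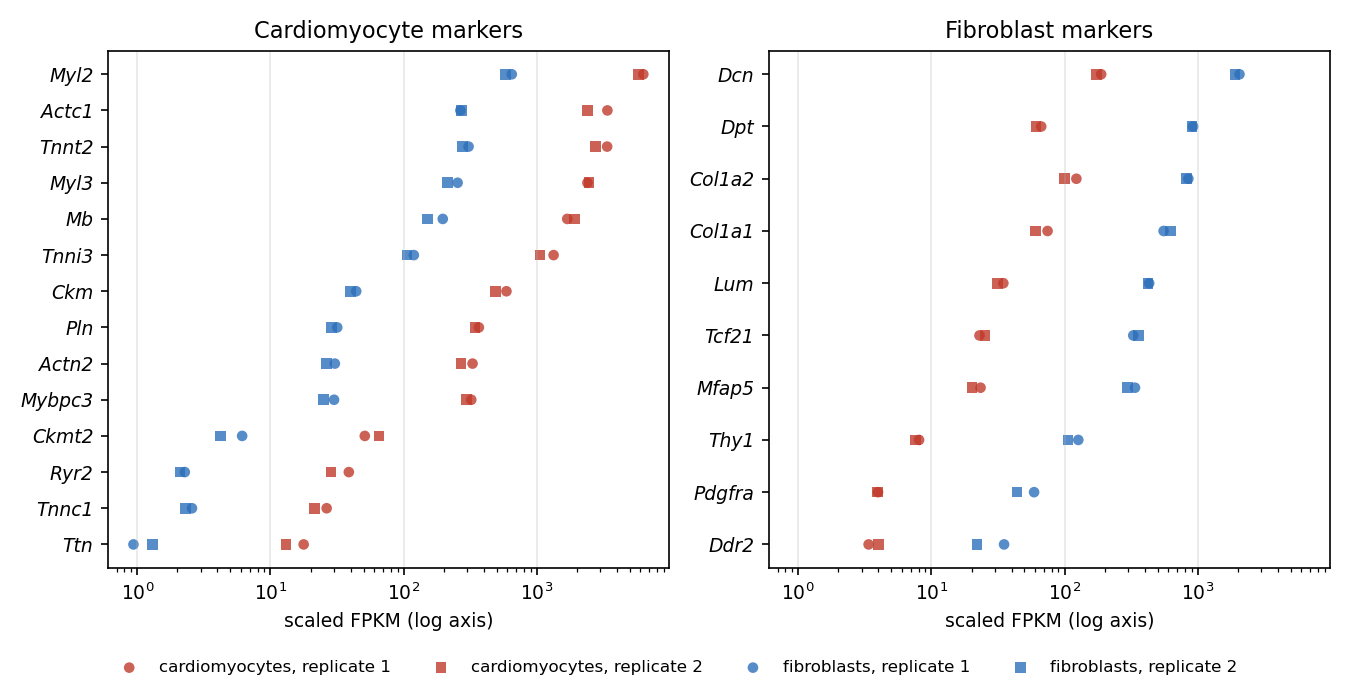
Scaled FPKM of 14 cardiomyocyte markers and 10 fibroblast markers on a log axis, with 1 point for each of the 4 libraries. Cardiomyocyte markers lie about 10-fold apart between cell types whatever their level, from Ttn near 1 FPKM in fibroblasts to Myl2 at 6310 FPKM in cardiomyocyte replicate 1, and no groups overlap.

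Some defining genes have no value here. Some abundant transcripts carried a status of too much data and were listed at 0. They included Col3a1, Col4a1, Col4a2, Postn, Thbs1, Eef1a1 and Vim in both fibroblast libraries, Hba-a1, Hbb-bs and most protein-coding genes of the mitochondrial genome in both cardiomyocyte libraries, and Myh6 in cardiomyocyte replicate 1. Their 63 genes, with those of failed estimates, were left out of the contrast. Of the 11944 genes tested, 6754 were called, 3513 higher in cardiomyocytes and 3241 higher in fibroblasts. A difference of 2-fold or more was reached by 1352 and 867 of them, and 8-fold or more by 99 and 56. The groups did not overlap in 81.1% of all genes tested.

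Red blood cell genes had the largest excess in cardiomyocytes. The hemoglobin chains Hbb-bt and Hba-a2 and the heme enzyme Alas2, all products of red blood cells, led with log2 differences of 7.59 ± 0.38, 7.25 ± 0.31 and 6.49 ± 0.14. Hba-a2 was at 11326 and 13889 FPKM in cardiomyocytes and 117 and 56.9 in fibroblasts. Behind them came the atrial genes Myl7, Sln, Nppa and Myl4. The antisense transcript Gm13054 (mm9 chr4, 147375200 to 147378123) overlaps part of Nppa (147374831 to 147376188), and no source used here says that reads were assigned by strand. The mitochondrially encoded mt-Nd3, whose relatives listed at 0 were not tested, at 15290 and 12361 FPKM against 775 and 827, and the pseudogenes Gm13340, Gm10222 and Gm13341 completed the leading 12. In fibroblasts, the basic helix-loop-helix factor Msc led, with 72.5 and 53.3 FPKM against 1.36 and 1.69 in cardiomyocytes (log2 difference -4.65 ± 0.17). The hyaluronan-binding protein Tnfaip6 (-4.46 ± 0.12), the actin-severing protein Gsn (-4.26 ± 0.11), Medag (-4.19 ± 0.15), the Tead cofactor Vgll3 (-4.09 ± 0.15) and the plasminogen-binding Clec3b (-3.90 ± 0.11) followed. Dpt, Mfap5, the protease Pcsk6, Tcf21, Thy1 and Smoc2 completed the list, at -3.82 to -3.71. The highest limma adjusted p among these 24 genes was 0.00103.

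**Figure D2:**
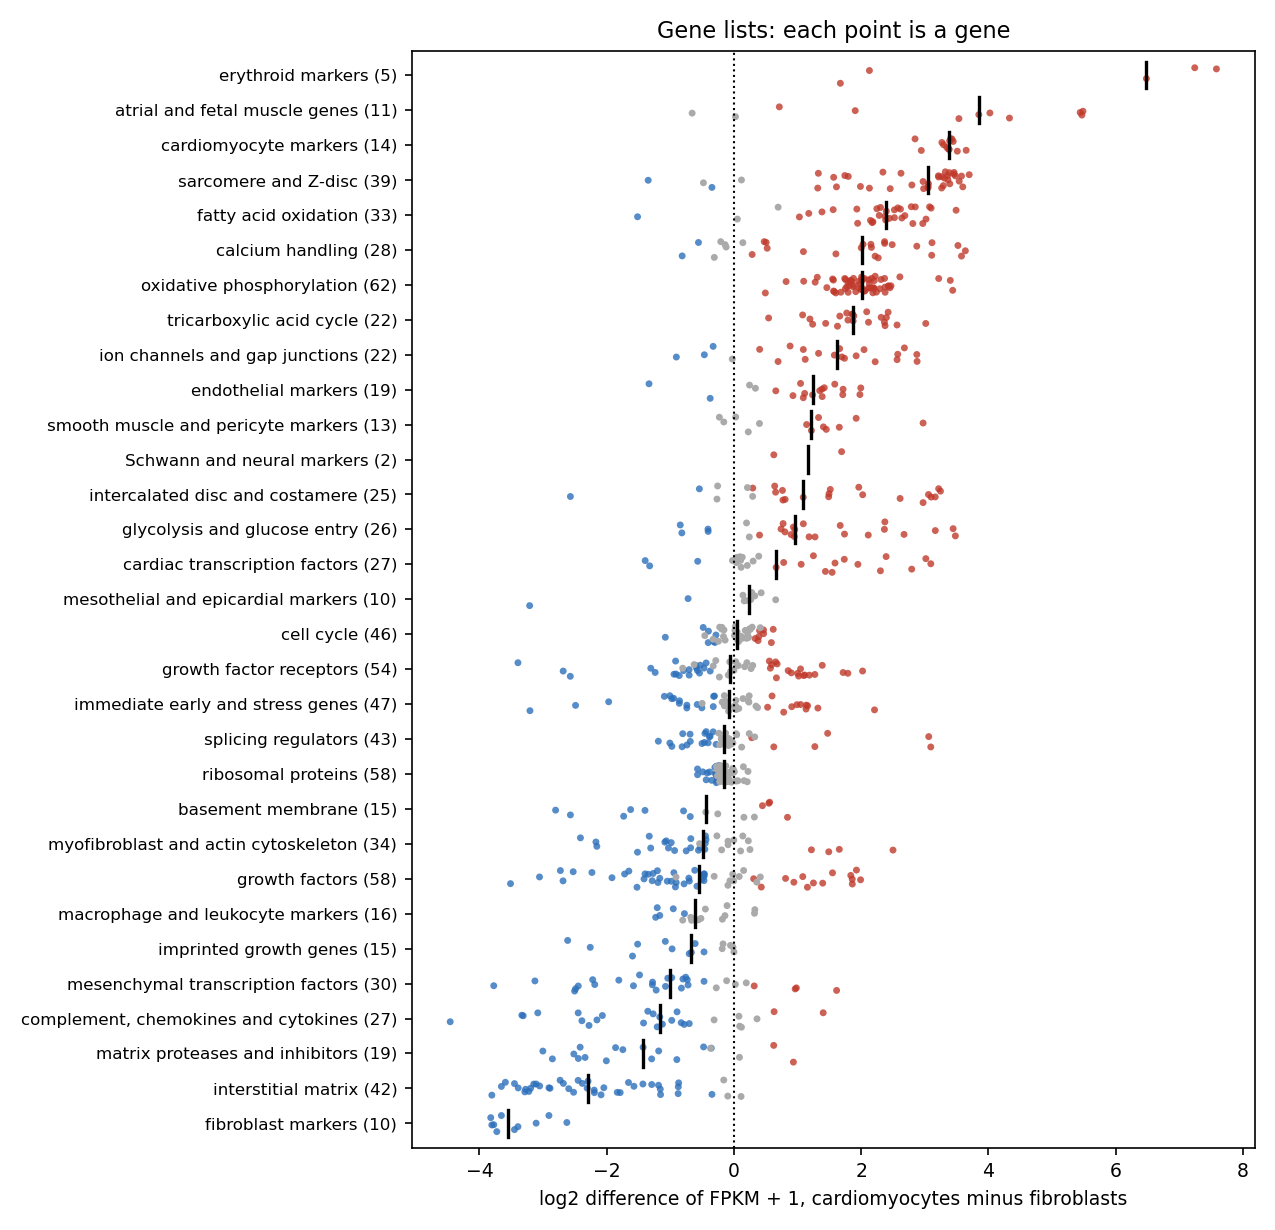
Log2 difference of FPKM + 1 (x axis, cardiomyocytes minus fibroblasts) for each tested member of 31 gene lists, with the number tested in brackets. Red and blue points were called higher in cardiomyocytes or fibroblasts, grey points were not called, bars mark list medians and the dotted line the median of all genes (-0.002). Contractile and mitochondrial lists lie to the right, matrix and mesenchymal lists to the left, and cell cycle and ribosomal genes around 0.

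Genes of the sarcomere, the contractile unit of muscle, were higher in cardiomyocytes for 35 of 39 members tested (list median log2 difference 3.05, against -0.002 over all genes). Nebl, which anchors thin filaments at the Z-disc, was at 69.0 and 45.3 FPKM in cardiomyocytes and 3.36 and 3.41 in fibroblasts (3.70 ± 0.19). The Z-disc protein Csrp3 (3.60 ± 0.16) and slow skeletal troponin I (Tnni1, 3.46 ± 0.10), the fetal form that cardiac troponin I replaces, were similar. Tnni1 at 872 and 760 FPKM was below cardiac Tnni3 at 1337 and 1059, and Myh7, the fetal myosin heavy chain of the mouse ventricle, was at 266 and 200. There were 4 exceptions. Tpm3, a tropomyosin of many cell types (-0.34 ± 0.09), and fast skeletal Tnnt3 (-1.35 ± 0.17), a gene at 3.82 FPKM or less in these libraries, were higher in fibroblasts. Tpm2 (0.12 ± 0.11) and Pdlim3 (-0.48 ± 0.21) were not called. Sums of Ttn, Tnnc1, Tpm3, Pdlim5 and Tnnt3, among others, are partial, because at least 1 of their transcripts had too few reads for an estimate.

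Atrial and fetal muscle genes were higher in cardiomyocytes for 9 of 11 members (list median 3.85), but their level differed between the cardiomyocyte libraries. Nppa, the atrial natriuretic peptide, was at 1144 and 258 FPKM in cardiomyocytes and at 6.98 and 18.6 in fibroblasts. The atrial light chain Myl7 was at 1572 and 460 FPKM, and Myl4 at 1011 and 260. Sarcolipin (Sln), an inhibitor of the calcium pump in atria, was at 252 and 82.3 FPKM. Replicate 1 was thus 3.06 to 4.44 times replicate 2 for these 4 genes, while cardiomyocyte markers were at a median of 1.21 times. The log2 differences kept wide errors as a result (Nppa 5.44 ± 0.70, Myl7 5.49 ± 0.64, Sln 5.47 ± 0.62). Against the fibroblast mean, Nppa was 89.5-fold higher in replicate 1 and 20.2-fold higher in replicate 2. Nppb, the natriuretic peptide of the ventricle, was at 117 and 79.5 FPKM against 7.82 and 7.01 in fibroblasts (3.54 ± 0.18).

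Calcium handling genes, which couple excitation to contraction, were higher in cardiomyocytes for 21 of 28 members (list median 2.02). The calcium release channel Ryr2 was at 38.8 and 28.4 FPKM against 2.27 and 2.09, and the calcium store protein Casq2 at 201.2 and 139 against 14.6 and 12.7 (3.52 ± 0.18). The sodium-calcium exchanger Slc8a1 (2.88 ± 0.21) and the L-type calcium channel Cacna1c (2.37 ± 0.13) were higher by less. The calcium pump Atp2a2, which other cells also use, was at 576 and 459 FPKM against 134 and 122 (2.00 ± 0.13). The calcium sensor Stim1 (-0.81 ± 0.10) and the inositol trisphosphate receptor Itpr1 (-0.56) were higher in fibroblasts. Of 22 ion channel and gap junction genes, 18 were higher in cardiomyocytes, among them the potassium channel subunit Kcne1 (2.88 ± 0.11). The gap junction protein of the working ventricle, Gja1, was at 289 and 259 FPKM against 135 and 121 (1.09 ± 0.10), a 2.14-fold difference. Gja5, a gap junction protein of atria and conduction tissue, was at 19.4 and 8.99 FPKM against 1.12 and 1.33. Gjc1 and Cacna1d were among those higher in fibroblasts.

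The intercalated disc joins cardiomyocytes end to end, and 19 of 25 of its genes and those of the costamere, the lateral anchor, were higher in cardiomyocytes (list median 1.09). Desmoplakin (Dsp), caveolin 3 (Cav3) and desmin (Des) had log2 differences of 3.17 ± 0.12, 3.25 ± 0.14 and 2.97 ± 0.11. N-cadherin (Cdh2) was at 54.9 and 45.5 FPKM against 12.9 and 10.3. The catenins Ctnna1 and Ctnnb1, parts of every cell adhesion, differed by 0.66 and 0.64. Vinculin (Vcl) overlapped between the groups, at 51.9 and 64.0 FPKM in cardiomyocytes and 62.7 and 39.2 in fibroblasts. Lama2, the laminin chain of muscle basement membrane, was at 8.52 and 7.60 FPKM in cardiomyocytes and 44.3 and 62.8 in fibroblasts (-2.57 ± 0.17).

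Some cardiac transcription factors differed between the cell types and others did not pass the test. Of 27 tested, 14 were higher in cardiomyocytes and 3 in fibroblasts (list median 0.66). That is 63.0% called, near the 56.5% of all genes. Nkx2-5, the core cardiac homeobox factor, was at 33.4 and 27.5 FPKM in cardiomyocytes and 2.77 and 2.55 in fibroblasts (3.10 ± 0.13). Hopx (3.02 ± 0.10), the mitochondrial coactivator Ppargc1a (2.80 ± 0.17), the ventricular factor Irx4 (2.39) and Myocd, the muscle cofactor of Srf (2.30 ± 0.18), were also higher. Srf itself was at 42.0 and 50.4 FPKM against 49.99 and 36.9, and its groups overlapped. Gata4, a pioneer of heart development, was at 51.6 and 46.3 FPKM against 42.7 and 41.5, and its log2 difference of 0.21 had a 95% interval from -0.02 to 0.45 (adjusted p = 0.107). Gata6, Mef2a, Mef2d, Tead1 and Hand2 were not called either, with differences of 0.04 to 0.30. The T-box factor Tbx20 was higher in fibroblasts, at 67.6 and 63.7 FPKM against 32.2 and 20.4 (-1.32 ± 0.20), as was Nfatc1 (-1.39 ± 0.12). Zfpm2, a Gata4 cofactor, was the other gene higher in fibroblasts.

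Of 30 mesenchymal transcription factors, 22 were higher in fibroblasts and 4 in cardiomyocytes (list median -1.01). Tcf21 was at 328 and 357 FPKM in fibroblasts and 23.0 and 25.3 in cardiomyocytes, the largest difference of the list. Twist2 (-3.13 ± 0.13), Sox9 (-2.50), Egr2 (-2.49), Aebp1 (-2.45) and Twist1 (-2.22) followed. Gli1, Gli2 and Gli3, the effectors of hedgehog signalling, were all higher in fibroblasts. Tbx3, a factor of the conduction system, went the other way, at 13 and 13.7 FPKM in cardiomyocytes and 3.66 and 3.69 in fibroblasts (1.62 ± 0.11). Scx, Meox2 and Tbx2 were the other members higher in cardiomyocytes.

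Promoter sequences of the contractile genes were searched for short motifs. Srf binds the CArG box, a run of A and T bases between a pair of C and a pair of G bases. It was present on either strand in the 250 bases before the start of 10.1% of 79 promoters (63 of the 76 genes in the cardiomyocyte marker, sarcomere and atrial lists had 1 in the RefSeq table, build GRCm38.p6). Among these promoters, Ldb3 was counted more than once for the same box, and Acta1 was not among the genes tested. The share was 1.27% over 11634 promoters of genes tested and 1.47% over all 32851 promoters of the table. It was 0 of 38 for the fibroblast marker and matrix lists. Over all genes called at least 2-fold higher, it was 1.88% for cardiomyocytes and 1.81% for fibroblasts. The MEF2 site was in 6.33% of the contractile promoters against 0.456% of those of genes tested. TATAAA was in 19% against 6.50%, AGATAA, a core of GATA sites, in 19% against 5.91%, and GGAATG, a core of TEAD sites, in 25.3% against 10.8%. CCAAT was in 39.2% against 34.8%. In the fibroblast marker and matrix lists TATAAA was in 21.1%, above its share in the contractile lists, and AGATAA in 5.26%, GGAATG in 10.5% and CCAAT in 23.7%. These are matches of letters, not measured binding, and their part in the differences between cell types was not tested. The windows below show the CArG box in capitals, 5′ to 3′ on the strand of the gene, for 6 genes that were all called higher in cardiomyocytes.
Actc1 (chr2:114052888-114052947, - strand): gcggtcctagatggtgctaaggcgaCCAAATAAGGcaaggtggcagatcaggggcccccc
Myl3 (chr9:110763568-110763627, + strand): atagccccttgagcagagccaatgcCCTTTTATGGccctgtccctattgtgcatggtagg
Myl7 (chr11:5898809-5898868, - strand): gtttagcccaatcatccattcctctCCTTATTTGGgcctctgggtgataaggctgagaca
Ldb3 (chr14:34588682-34588741, - strand): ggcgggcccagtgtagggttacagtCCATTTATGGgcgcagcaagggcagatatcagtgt
Myom1 (chr17:71019433-71019492, + strand): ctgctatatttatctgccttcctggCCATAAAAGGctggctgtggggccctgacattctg
Nebl (chr2:17462984-17463043, - strand): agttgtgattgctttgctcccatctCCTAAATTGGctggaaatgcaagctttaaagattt

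Actc1, cardiac alpha-actin, was at 3391 and 2416 FPKM in cardiomyocytes and 267 and 272 in fibroblasts (3.41 ± 0.16). Its box ended 37 bases before the start site, that of Myl7 51 bases before it and that of Myl3 75 bases before it. The levels of these genes spanned a wide range in cardiomyocytes, from 69.0 and 45.3 FPKM for Nebl to 3391 and 2416 for Actc1, and their log2 differences from 3.22 (Myom1) to 5.49 (Myl7).

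Genes of energy supply were higher in cardiomyocytes almost without exception. Every 1 of the 62 nuclear respiratory chain and ATP synthase genes was called higher there (list median 2.01). The muscle forms of cytochrome c oxidase subunits, Cox8b (3.44 ± 0.10), Cox7a1 (3.40) and Cox6a2 (3.22), stood above every other member. Their widely expressed counterparts Cox6a1 (0.82 ± 0.11) and Cox8a (1.10 ± 0.11) were among the smallest differences, while Cox7a2, the counterpart of Cox7a1, was at 1.68. Cox8b was at 435 and 432 FPKM in cardiomyocytes and 42.4 and 35.8 in fibroblasts, while Cox8a was at 601 and 494 against 245 and 263. All 22 genes listed for the tricarboxylic acid cycle, pyruvate entry and linked shuttles were called higher in cardiomyocytes (list median 1.87). The largest difference was that of Mdh1 (3.02 ± 0.13), the cytosolic malate dehydrogenase, which acts outside the cycle. Of 33 genes of fatty acid oxidation, 30 were called higher in cardiomyocytes (list median 2.39). Fabp3, the fatty acid carrier of muscle, was at 1874 and 1908 FPKM against 188 and 149 (3.49 ± 0.12). Cpt1b, the muscle gate of fatty acid entry into mitochondria, was at 107 and 89.0 FPKM against 10.6 and 10.4. Its liver form Cpt1a overlapped, at 16.6 and 14.8 against 15.9 and 14.2. Acsl4, which activates arachidonic acid, was higher in fibroblasts (-1.51 ± 0.16), and lipoprotein lipase (Lpl) was not called (0.70 ± 0.26, adjusted p = 0.0611).

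Glycolytic genes were higher in cardiomyocytes for 20 of 26 members, with a smaller median of 0.95. The muscle forms Pgam2 (3.48 ± 0.15) and Eno3 (3.45) led, with Ldhb (3.17 ± 0.12), the heart form of lactate dehydrogenase. The insulin-dependent glucose transporter Slc2a4 was at 16.2 and 12.5 FPKM in cardiomyocytes and 2.66 and 2.41 in fibroblasts. The general transporter Slc2a1 was higher in fibroblasts, at 59.9 and 41.8 FPKM against 26 and 29.1 (-0.84 ± 0.17), as were hexokinase 2 (Hk2), Pgam1 and the lactate exporter Slc16a3. Without cardiomyocyte replicate 1 the count higher in fibroblasts was 2, and without cardiomyocyte replicate 2 it was 1.

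Shares of related family members were compared in 29 pairs of a muscle gene and a related gene. Ldhb, the heart form of lactate dehydrogenase, was entered as the muscle gene against Ldha. The muscle gene was higher in cardiomyocytes in 28 of them. The related gene was higher in cardiomyocytes in 15 pairs, higher in fibroblasts in 5 and not called in 9. In 26 pairs the ratio of muscle gene to related gene was larger in both cardiomyocyte libraries than in either fibroblast library. Muscle actin Actc1 made up 89.4% and 82.8% of the sum with Actb in cardiomyocytes and 24.6% and 30.1% in fibroblasts. Muscle creatine kinase Ckm was 90.6% and 91.3% of the sum with Ckb against 43.1% and 39.4%, while Ckb itself was not called (-0.15 ± 0.14). Pgam2 moved from 17.7% and 16.2% of its pair in fibroblasts to 78.1% and 73.6% in cardiomyocytes. The glycogen phosphorylases Pygm and Pygb kept similar shares: both were higher in cardiomyocytes by 2.37. Dystrophin (Dmd) was the muscle gene higher in fibroblasts (-0.54 ± 0.15), with its relative Utrn higher in cardiomyocytes (0.48 ± 0.14). Myl2 was set against Myl9 and stayed above 91% of that pair in each library. Cardiomyocyte markers, Actc1, Ckm and Myl2 among them, stood in the fibroblast libraries at 6.49% to 10.2% of their cardiomyocyte level. The part of such transcripts in the fibroblast shares was not tested.

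**Figure D3:**
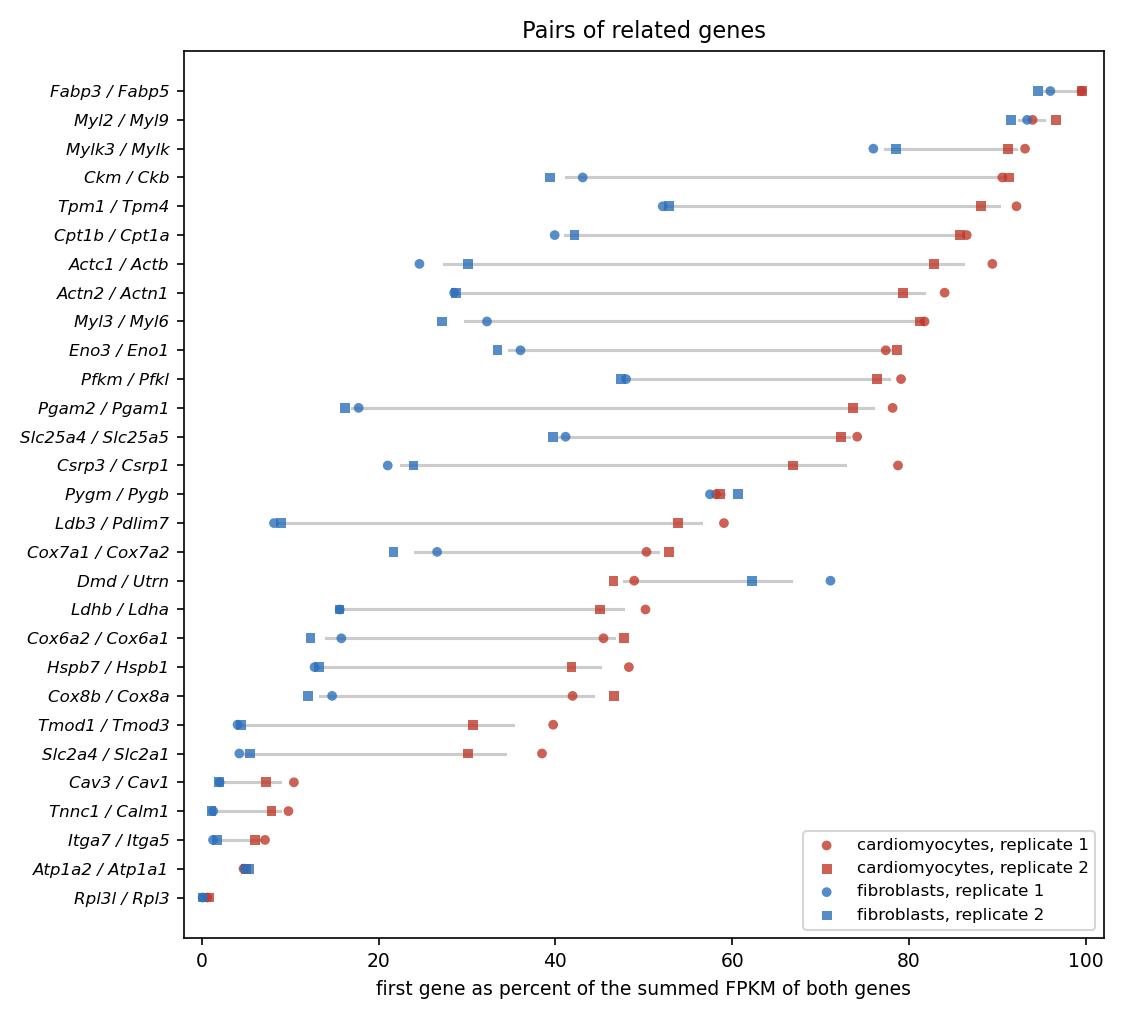
The first gene of each of 29 pairs as percent of the summed FPKM of both (x axis), with 1 point for each of the 4 libraries and a grey line between the means of the cell types. The first gene takes a larger share in both cardiomyocyte libraries in 26 pairs, and Dmd with Utrn, by their gene sums, runs the other way.

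On the fibroblast side, most interstitial matrix genes went one way. Of 42 members 39 were higher in fibroblasts and 0 in cardiomyocytes (list median -2.30). The small proteoglycan decorin (Dcn) was at 2058 and 1905 FPKM in fibroblasts and 188 and 173 in cardiomyocytes, and lumican (Lum) at 432 and 423 against 34.7 and 31.4. Dermatopontin (Dpt), which binds decorin, was at 922 and 908 FPKM against 66.8 and 60.9. Fibronectin (Fn1, -2.60 ± 0.09), fibrillin 1 (Fbn1, -2.45 ± 0.12) and the crosslinking enzymes Loxl2 (-3.19 ± 0.12) and Lox (-1.66 ± 0.10) were also higher in fibroblasts. Sparc, a collagen-binding protein, was high in both cell types, at 2375 and 2348 FPKM in fibroblasts and 1015 and 1105 in cardiomyocytes. Elastin (Eln) was not called, at 687 and 910 FPKM in fibroblasts and 681 and 735 in cardiomyocytes (-0.16 ± 0.14, 95% interval -0.49 to 0.18). Fmod and Spp1 were the other members not called. Ccn2 and Tnc were higher in fibroblasts in both libraries but unevenly, with Ccn2 at 1464 and 596 FPKM against 196 and 212.

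The basement membrane genes tested were less one-sided than the interstitial matrix. Of 15, 7 were higher in fibroblasts and 4 in cardiomyocytes (list median -0.44). Col4a1 and Col4a2 were not tested, because they carried the status of too much data in both fibroblast libraries. Col15a1 was at 363 and 357 FPKM in fibroblasts and 50.2 and 51.2 in cardiomyocytes (-2.80 ± 0.08). Lama5 (0.84 ± 0.14), Nid2, Sparcl1 and Col18a1 were higher in cardiomyocytes. Endothelial markers were higher in those libraries too, 15 of 19, and their part in this was not tested. Of 19 matrix proteases and their inhibitors, 15 were higher in fibroblasts (list median -1.43). The gelatinase Mmp2 was at 365 and 365 FPKM against 52.9 and 46.7, and the serpin Serpine2 was higher as well. Timp3 was not called (0.09 ± 0.08), and Adamts9 and Plau were higher in cardiomyocytes.

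Myofibroblast and actin cytoskeleton genes were higher in fibroblasts for 20 of 34 members and in cardiomyocytes for 4 (list median -0.49). The lectin Lgals1 (-2.15 ± 0.08), S100a6 (-2.41 ± 0.11) and Cthrc1 (-2.17), a protein of activated fibroblasts, had the largest excess. Smooth muscle actin (Acta2), the usual mark of a myofibroblast, was higher in cardiomyocytes, at 377 and 300 FPKM against 124 and 90.4 (1.66 ± 0.17). Myl9, Actg2 and Cnn1 went the same way. Tagln was not called, at 86.1 and 80.3 FPKM in cardiomyocytes and 79.3 and 63.3 in fibroblasts. These genes also mark smooth muscle and pericytes, whose part in this was not tested. Myh11, the smooth muscle myosin, was at 2.77 and 3.13 FPKM against 0.513 and 0.369.

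Growth factor genes were divided between the cell types, 34 of 58 higher in fibroblasts and 14 in cardiomyocytes (list median -0.54). The semaphorin Sema3c was at 48.0 and 37.0 FPKM in fibroblasts and 3.21 and 2.41 in cardiomyocytes (-3.51 ± 0.17). The activin subunit Inhba was at 112 and 56.8 FPKM against 12 and 10.5. Tgfb2 and Tgfb3 were higher in fibroblasts (-1.52 ± 0.12 and -1.41), while Tgfb1 was slightly higher in cardiomyocytes (0.31). Vegfb, at 53.1 and 49.2 FPKM against 13.1 and 13.6 (1.86 ± 0.10), and Bmp7 (1.99 ± 0.17) were higher in cardiomyocytes. Angpt2, Pdgfb, Cxcl12, Edn1 and Kitl, genes that endothelial or mural cells also make, were higher there as well, and their source in these libraries was not tested. Igf2 was abundant in both, at 683 and 635 FPKM in cardiomyocytes and 767 and 1085 in fibroblasts.

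Of 54 receptor genes, 19 were higher in cardiomyocytes and 20 in fibroblasts (list median -0.06). Pdgfra was at 59.0 and 44.0 FPKM in fibroblasts and 3.97 and 3.92 in cardiomyocytes, Egfr at 14.1 and 13.1 against 1.38 and 1.18, and Fgfr1 at 304 and 168 against 34.5 and 40.1. Pdgfrb, its relative on mural cells, overlapped between groups, at 24.4 and 18.8 FPKM in fibroblasts and 17.4 and 19 in cardiomyocytes. The TGF-beta receptors Tgfbr1, Tgfbr2 and Tgfbr3 were higher in fibroblasts by 0.54 to 0.79 on the log2 scale. The alpha-adrenergic receptor Adra1b (2.02 ± 0.17), the muscarinic receptor Chrm2 (1.79) and the angiotensin receptor Agtr1a (1.39 ± 0.14) were higher in cardiomyocytes. Igf1r was not called (-0.32 ± 0.13, adjusted p = 0.072).

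Inflammatory genes were mostly higher in the fibroblast libraries, with 20 of 27 complement, chemokine and cytokine genes higher there and 2 in cardiomyocytes (list median -1.16). The neutrophil chemokine Cxcl1 was at 1583 and 1300 FPKM in fibroblasts and 136 and 151 in cardiomyocytes (-3.31 ± 0.12). The pentraxin Ptx3 (-3.33 ± 0.11) and the chemokine Ccl7 (-3.08) were similar, and Ccl2 was at 1279 and 663 FPKM against 304 and 426. Macrophage markers moved with fibroblast replicate 2, in which all 16 stood above replicate 1, and 5 of the 16 were called higher in fibroblasts. C1qa is in both lists, and the part of macrophages in these differences was not tested. Cx3cl1, a chemokine of endothelium, was higher in cardiomyocytes (1.40 ± 0.20). Il1b, Il6 and Tnf were at 12.7 FPKM or less in each library, and of these Tnf was higher in fibroblasts (-0.83).

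Cell cycle genes were close to balance. Of 46 members, 8 were higher in cardiomyocytes and 7 in fibroblasts, which is 32.6% called against 56.5% of all genes, and the median was 0.06. The mitotic kinases Plk1 (0.62 ± 0.14) and Aurka (0.59) and the proliferation antigen Mki67, at 14.8 and 17.2 FPKM against 11.4 and 12.2, were higher in cardiomyocytes. Cdk1 overlapped, at 42.9 and 47.8 FPKM in cardiomyocytes and 43.2 and 40.5 in fibroblasts. The replication gene Mcm4 (-0.40), Ccnd2 (-0.48) and the inhibitor Cdkn1c (-1.08 ± 0.13) were higher in fibroblasts. The counts moved when 1 library was left out: 3 and 2 without cardiomyocyte replicate 1, 1 and 2 without cardiomyocyte replicate 2, 5 and 3 without fibroblast replicate 1, and 10 and 8 without fibroblast replicate 2. With libraries set to equal sums the split was 3 and 12.

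Splicing regulators showed a pair of strong cardiomyocyte genes among many small differences. Of the list 53.5% were called, near the 56.5% of all genes. Rbm24 was at 31.1 and 22.7 FPKM in cardiomyocytes and 2.21 and 2.24 in fibroblasts (3.10 ± 0.16). Rbm20, whose loss alters titin splicing, was at 27.4 and 22.6 against 2.24 and 1.95 (3.06 ± 0.13). In all 6 of 43 were higher in cardiomyocytes and 17 in fibroblasts (list median -0.16), the latter 10 without either cardiomyocyte library. Ptbp1, a repressor of muscle and neural exons, was at 229 and 235 FPKM in fibroblasts and 140 and 148 in cardiomyocytes (-0.68 ± 0.08). Mbnl2 was also higher in fibroblasts (-0.97 ± 0.09), and the general factors Hnrnpa1, Hnrnpk and Srsf3 were not called.

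Isoform use was then compared within genes as the share of a transcript in its gene's summed FPKM. Of 11626 isoforms of 4062 genes, 847 (7.29%) were called, with an adjusted p below 0.05 and a difference of at least 10 percentage points. They lay in 538 genes, 203 of which had no called difference in their sum. The number of called isoforms was 422 without cardiomyocyte replicate 1, 495 without replicate 2 and 440 without fibroblast replicate 2. The leading isoform differed between the cell types in 139 genes. Among 53 testable genes from a list of known splicing targets of heart and muscle, 22 had a called isoform. Over all genes with tested isoforms, 13.2% had a called isoform. The largest differences in different genes were in Cda, Palld, Hectd2os, Pde4dip, Ppp2r3a, Usp2, Mfn2, Slc25a3, Iqsec2, Sh3kbp1, Ift81 and Immt. The isoforms of Iqsec2, Sh3kbp1, Ift81 (a retained intron) and the antisense gene Hectd2os are non-coding.

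Slc25a3 carries phosphate into mitochondria and includes one of a pair of alternative coding exons. Transcript Slc25a3-206, with the upstream exon, held 76.8% and 72.2% of the gene's FPKM in cardiomyocytes and 24.4% and 22.5% in fibroblasts (51.1 points, limma adjusted p = 0.0015). Over the 3 coding transcripts that carry one or the other exon, the upstream exon was in 81.7% and 76.9% in cardiomyocytes and 32.7% and 32.6% in fibroblasts. Both exons follow, 5′ to 3′ on the minus strand of GRCm38 from GENCODE M21 transcripts, with capitals where a base has no match in an alignment of the pair. They agree at 65.6% of aligned positions.
Slc25a3 upstream exon (chr10:91122207-91122331): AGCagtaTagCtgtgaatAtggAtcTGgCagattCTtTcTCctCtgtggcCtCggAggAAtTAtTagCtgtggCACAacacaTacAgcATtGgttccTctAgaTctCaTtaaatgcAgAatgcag
Slc25a3 downstream exon (chr10:91121922-91122043): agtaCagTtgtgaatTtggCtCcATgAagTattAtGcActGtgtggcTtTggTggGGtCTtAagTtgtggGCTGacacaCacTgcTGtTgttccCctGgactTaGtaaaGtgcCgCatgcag

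Pyruvate kinase (Pkm), the last enzyme of glycolysis, uses the same arrangement. Pkm-202 carries the exon of the M1 enzyme of adult muscle and Pkm-201 that of the M2 enzyme of growing tissues. Pkm-202 made up 71.3% and 65.4% of the gene in cardiomyocytes and 29.4% and 27.0% in fibroblasts, a difference of 40.2 points. In FPKM, Pkm-202 was at 269 and 242 in cardiomyocytes against 55.1 and 53.8, whereas Pkm-201 was at 108 and 128 against 132 and 146. The exons are of equal length, 167 bases each on the plus strand of GRCm38, and agree at 61.7% of positions. Capitals mark the 64 positions at which they differ.
Pkm-202 exon (chr9:59675029-59675195): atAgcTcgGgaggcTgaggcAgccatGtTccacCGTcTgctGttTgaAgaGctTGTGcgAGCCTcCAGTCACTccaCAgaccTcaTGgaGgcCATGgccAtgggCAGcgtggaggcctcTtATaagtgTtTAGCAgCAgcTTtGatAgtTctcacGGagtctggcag
Pkm-201 exon (chr9:59675568-59675734): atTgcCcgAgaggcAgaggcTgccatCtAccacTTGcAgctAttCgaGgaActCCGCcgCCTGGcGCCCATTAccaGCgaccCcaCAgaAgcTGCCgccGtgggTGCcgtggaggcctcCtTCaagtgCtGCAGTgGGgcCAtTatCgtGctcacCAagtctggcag

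Cassette exons, which are either included or skipped, also differed. Ap2a1 encodes a subunit of the adaptor that loads clathrin-coated pits. Its 66-base exon was included in 32.9% and 28.0% of the paired transcripts in cardiomyocytes and 6.95% and 7.5% in fibroblasts. Capzb caps actin filaments, at the Z-disc in muscle. Transcript Capzb-203, which includes its cassette exon, held 56.0% and 43.7% in cardiomyocytes and 8.69% and 9.24% in fibroblasts over the 3 transcripts compared. The exons are shown in capitals after the preceding coding bases in lower case, and for Ap2a1 also before the following ones.
Ap2a1-203 exon (chr7:44903462-44903527, - strand): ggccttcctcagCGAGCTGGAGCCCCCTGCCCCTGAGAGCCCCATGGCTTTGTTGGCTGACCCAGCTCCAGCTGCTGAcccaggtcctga
Capzb-203 exon, coding part (chr4:139288861-139288960, + strand): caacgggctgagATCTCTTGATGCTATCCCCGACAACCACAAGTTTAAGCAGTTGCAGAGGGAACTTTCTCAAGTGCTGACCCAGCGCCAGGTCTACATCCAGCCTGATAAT

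Isoform shares also differed in cytoskeletal genes, both with and without a called difference of the gene sum. Palladin, an actin organiser, switched from Palld-202 (87.1% and 85.5% in fibroblasts, 13.7% and 19.9% in cardiomyocytes) to the longer Palld-204 (5.86% and 5.31% in fibroblasts, 66.2% and 62.1% in cardiomyocytes). The sum of Palld was not called (0.16). Enah-202 made up 34.0% and 39.5% of Enah in fibroblasts and 77.3% and 78.4% in cardiomyocytes, and the sum of Enah was not called (-0.26). Tpm1-205 was 91.9% and 89.5% of tropomyosin 1 in cardiomyocytes and 52.3% and 52.5% in fibroblasts, while the sum of Tpm1 was called higher in cardiomyocytes (2.63). Fhl1-204 held 54.9% and 36.1% of the LIM protein Fhl1 in cardiomyocytes and 1.07% and 1.62% in fibroblasts, although the gene sum was higher in fibroblasts (-1.34). The dystrophin gene showed the same contrast of sum and isoform. Dmd-203, its longest transcript at 14910 bases, held 42.9% and 35.0% of the gene in cardiomyocytes and 1.54% and 2.13% in fibroblasts. The sum of Dmd was lower in cardiomyocytes, and Dmd-201, of 4438 bases, held 39.5% and 46.4% in fibroblasts.

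Mitochondrial and RNA-binding genes gave further examples. Mfn2, which fuses mitochondria, used Mfn2-201 for 81.5% and 81.0% of its FPKM in cardiomyocytes and 23.3% and 24.4% in fibroblasts. Mfn2-204 took 11.1% and 13% against 68.9% and 69.9%. Immt-205 was 68.2% and 67% of Immt, a cristae protein, against 21.5% and 23.9%. Atp5c1-201 was 88.9% and 88.2% of an ATP synthase subunit against 63.4% and 55.9%. Fxr1-201 made up 39.7% and 34.4% of the RNA-binding gene Fxr1 in cardiomyocytes and 4.55% and 2.71% in fibroblasts. Cardiomyocyte markers stood in the fibroblast libraries at 6.49% to 10.2% of their level, and the part of such transcripts in these shares was not tested. Cufflinks divides reads among overlapping isoforms by estimate, so shares of transcripts that differ little are less sure than the values show.

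**Figure D4:**
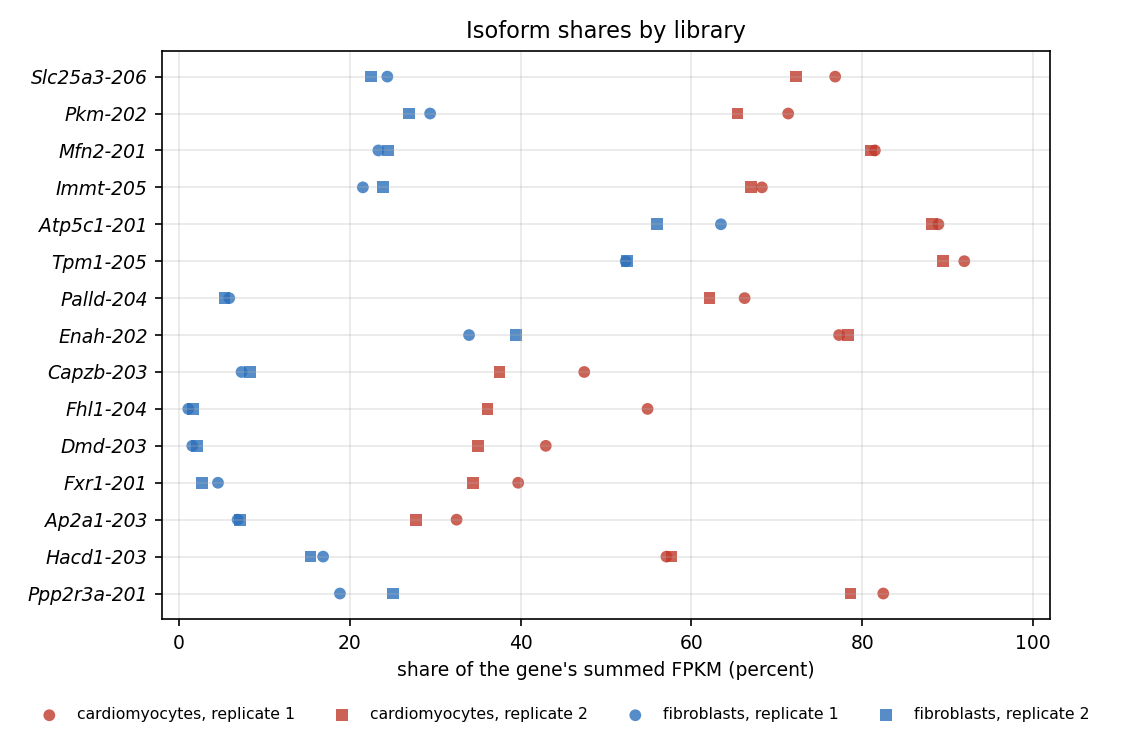
Share of 15 isoforms in the summed FPKM of their gene (x axis, percent), with 1 point for each of the 4 libraries. The cardiomyocyte libraries lie to the right for each isoform drawn, and the widest gap between replicates is that of Fhl1-204 in cardiomyocytes (54.9% and 36.1%).

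Markers of cell types other than the named pair were present in both preparations. Endothelial markers were higher in the cardiomyocyte libraries for 15 of 19 members (list median 1.24), with Fabp4 at 2700 and 2884 FPKM against 691 and 721 and the junction protein Cdh5 at 300 and 351 against 114 and 133. Vwf and Tek were higher in fibroblasts, and neither call was made without either cardiomyocyte library. All 5 red blood cell markers with a value were higher in the cardiomyocyte libraries. For macrophages and leukocytes, 5 of 16 markers were called higher in fibroblasts and 0 in cardiomyocytes (list median -0.61), which is 31.2% against 27.1% of all genes called higher in fibroblasts. No tested marker of these lists was at 0 in a library. The macrophage result rested on fibroblast replicate 2, in which all 16 markers were above replicate 1, at a median of 2.14 times. C1qa was at 16.5 and 45.8 FPKM in fibroblasts and 11.1 and 12.4 in cardiomyocytes. Without fibroblast replicate 1 there were 14 macrophage markers higher in fibroblasts, and without fibroblast replicate 2 there were 3 higher in cardiomyocytes and 0 in fibroblasts. The count was 0 without cardiomyocyte replicate 1 and 2 without cardiomyocyte replicate 2.

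Differences between libraries of one cell type were few and concentrated in such genes. Of 5731 genes at 10 FPKM or more in cardiomyocytes, 12 differed 2-fold or more between the libraries, and of 5540 in fibroblasts, 25 did. The cardiomyocyte genes with the widest gap were Gm13054, Nppa, Myl4, Myl7, Mybphl, Myl1 and Sln, followed by C3, Gpx3 and Dkk3, and all were higher in replicate 1. Mesothelial genes, which mark the covering layer of the heart, were also higher there in 10 of 10 cases, with Msln at 11.5 and 2.92 FPKM and Upk3b at 6.63 and 1.86. In fibroblasts, genes with a wide gap included Gm21811, Ccn2 and Hbb-bt, higher in replicate 1, and C1qa, C1qb, C1qc, Tyrobp, Myl7 and Nppa, higher in replicate 2. Mesothelial genes were above replicate 1 in fibroblast replicate 2 in 9 of 10 cases. Most of this list did not differ between the cell types: 8 of 10 were not called. Without cardiomyocyte replicate 2, 3 were higher in cardiomyocytes, and without fibroblast replicate 2, 2 were. Aldh1a2, which makes retinoic acid in epicardium, was higher in fibroblasts, at 85.8 and 87.6 FPKM against 9.44 and 7.60 (-3.21 ± 0.12).

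**Figure D5:**
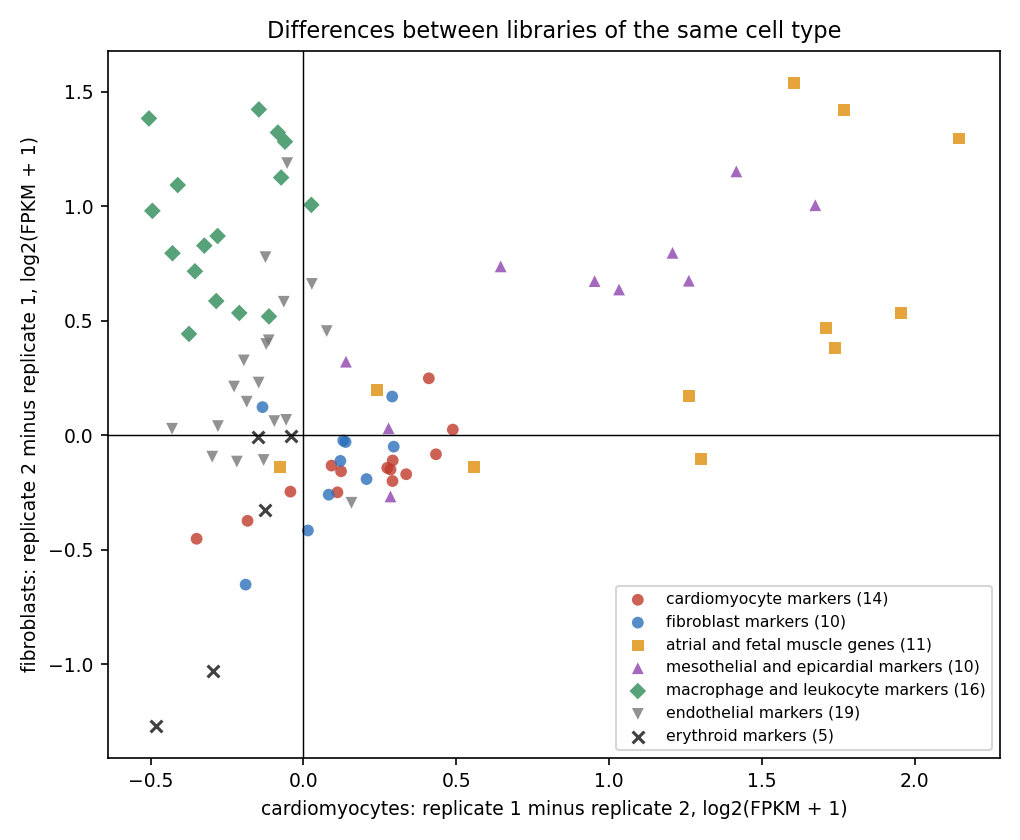
Difference between the cardiomyocyte libraries (x axis, replicate 1 minus 2) and between the fibroblast libraries (y axis, replicate 2 minus 1) in log2(FPKM + 1), with 1 point per gene of 7 marker lists. Atrial and mesothelial genes lie to the upper right, macrophage genes at the top, and the markers of both cell types near 0.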

How the data were processed

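RNA was sequenced from 4 neonatal cell libraries, 2 of cardiomyocytes and 2 of cardiac fibroblasts. The authors deposited FPKM per transcript with 95% bounds, a status and a coverage signal for 94696 transcripts a library, made with TopHat2 2.0.5 and Cufflinks 2.1.1 on build mm9, per the submitters' processing notes; the annotation release was not given in these sources. The deposited coverage was used only as a guide to depth. Transcript identifiers were matched to GENCODE M21 for names and exons (82379, 87.0%), and unmatched transcripts held 8.41% to 9.88% of a library's FPKM. Gene FPKM was the sum over transcripts of 200 bases or more with status OK. Transcripts with too few reads (LOWDATA) in any of the 4 libraries were left out of sums, so some sums are partial, and genes with a transcript listed at 0 for too much data or a failed fit were left out (63).

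Libraries were scaled by the median of ratios (factors 0.990 to 1.006). The test covered genes whose mean reached 1 FPKM and ran on log2(FPKM + 1) in limma 3.58.1 (R 4.3.3), with an intensity trend, 2 residual and 4.47 prior degrees of freedom, two-sided, with Benjamini-Hochberg adjustment over all genes. Fold changes on this scale understate those of low genes. Calls needed an adjusted p below 0.05. For isoforms, log2 ratios to the other isoforms of the gene, with 0.5 added to each, were tested likewise in genes with a mean of at least 5 FPKM. Count tests were not used, because FPKM are not counts.

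The contrast, the gene lists and the pairs were chosen with earlier results of these data known. Genes named are the 12 largest differences each way, list members with the largest differences or against their list, listed pairs, isoforms with the largest share differences, and the 10 widest gaps between replicates. Other list members, such as Cdh2, Fn1, Sparc, Gja1, Acta2 and Igf2, were named after their values were seen. Promoters are those of the RefSeq table, GRCm38.p6. mm9 and GRCm38 coordinates were not converted. Some list members are not reported here.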

Additional observations from a re-analysis of the deposited data

How the results depend on the processing

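No paired analysis was possible because the labels give the neonatal libraries no replicate numbers. Over the alternatives of scaling, constant, filter, transcript choice and fit, 4753 to 7087 genes were called against 6754. Setting libraries to equal sums without mitochondrial genes moved the median of all genes to -0.11 and the split to 2994 higher in cardiomyocytes and 4093 in fibroblasts, or 42.2% against 52.0% of calls. With a mean of at least 5 FPKM, 2310 genes were higher in cardiomyocytes. Leaving out 1 library at a time gave 4551 to 6672 calls, 2473 to 3503 higher in cardiomyocytes and 2078 to 3169 in fibroblasts. Isoform calls were 340 in genes of at least 20 FPKM, 212 at 20 percentage points, 1862 at an adjusted p alone, and 422 to 710 with 1 library left out.

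Of the 246 genes named, those that lost their call without 1 cardiomyocyte library included Igf2, Tbx2, Tek, Vwf, Hk2, Gjc1, Mcm4, Slc16a3, Col18a1, C1qa, C1qb and C1qc without either, Tnf, Tpm3, Utrn, Actb, Itpr1, Rpl24, Usp2 and Ccl2 without replicate 1, and Dmd, Tgfb1, Mki67, Plk1, Aurka, Ccnd2, Pgam1, Plau, Zfpm2 and H19 without replicate 2. Without fibroblast replicate 2, Tyrobp (0.57) and Gm21811 (-1.18) changed direction, and without fibroblast replicate 1 they were at -0.81 and 1.47. Eln, Tagln, Vcl, Lpl, Pdlim3, Il6, Plagl1, Gm21811 and Tyrobp were called without fibroblast replicate 1, and Hand2, Igf1r, Pdgfrb, Enah and Fxr1 without replicate 2. An arm left with 1 library is assumed to vary like the other. The cause was not tested. The absence of fragment totals limits any statement on low genes.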

Other observations

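Imprinted growth genes, which act mostly before weaning, were higher in fibroblasts for 10 of 15 members and in cardiomyocytes for 0 (median log2 difference -0.67). The maternally expressed RNA Meg3 was at 266 and 296 FPKM in fibroblasts and 52.3 and 38.7 in cardiomyocytes (-2.61 ± 0.15), and its paternally expressed neighbour Dlk1 at 61.6 and 78.7 against 17.4 and 10.9 (-2.26 ± 0.22). H19 was at 1515 and 2397 FPKM against 1324 and 1086 (-0.67 ± 0.21), and Grb10, Plagl1 and Gnas were not called. Of 58 genes for cytoplasmic ribosomal proteins, 20 were higher in fibroblasts and 0 in cardiomyocytes, with a median of -0.16. These 20 are 34.5% of the list, while 27.1% of all genes tested were called higher in fibroblasts. Rps12 (-0.57) and Rpl24 (-0.57) had the largest differences. This count was 4 without cardiomyocyte replicate 1, 6 without cardiomyocyte replicate 2, 8 without fibroblast replicate 2 and 37 with libraries set to equal sums.

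Immediate early and stress genes, which respond to dissociation as well as to growth signals, had calls in both directions. The isolation procedure differed between the cell types, and its part in these calls was not tested. Of 47 tested, 16 were called on the fibroblast side and 11 on the cardiomyocyte side, with a list median of -0.08. The share called was 57.4%, near the 56.5% of all genes, so it does not set this list apart. Egr3 was at 50.2 and 42.5 FPKM in fibroblasts and 4.04 and 4.2 in cardiomyocytes (-3.21 ± 0.12), and Fosl1 at 35.8 and 24.0 against 6.63 and 6.87 (-1.97 ± 0.18). Fos went the other way, at 336 and 310 FPKM in cardiomyocytes and 119 and 179 in fibroblasts (1.14), with Btg2 (1.16) and Gadd45b (1.05). Cyp1a1, an enzyme induced by the aryl hydrocarbon receptor, was at 67.9 and 49.7 FPKM in cardiomyocytes and 10.9 and 12.7 in fibroblasts (2.21 ± 0.16). Heme oxygenase (Hmox1) was at 548 and 685 against 633 and 566 and was not called. The count higher in fibroblasts was 10 without cardiomyocyte replicate 1 and 10 without cardiomyocyte replicate 2.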
